A study of Danio rerio with 30 samples.

Results

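The genes described are the heat shock protein and chaperonin genes of zebrafish blood progenitors: 89 of the 20631 genes in the deposited count table. They were chosen by name, as the rows whose symbol, ignoring case, starts with hsp and a letter or digit, with dnaj, or with cct and a digit, together with st13. By family they comprised 4 HSP90, 13 HSP70, 4 HSP110, 6 DNAJA, 14 DNAJB and 30 DNAJC genes, 3 HSP70 cofactors, 8 chaperonin (CCT) rows, 2 mitochondrial chaperonin genes, 4 small heat shock protein genes and 1 other. The name rule also takes in HSPG2, which encodes the matrix proteoglycan perlecan and is not a heat shock chaperone. In humans the gene named HSPB11 encodes a subunit of the intraflagellar transport machinery. Whether the zebrafish row hspb11 does so was not examined.

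RNA-seq was done on haematopoietic stem and progenitor cells, sorted at 6 days post fertilization as the GFP-low fraction of larvae in which the itga2b promoter drives GFP. Larvae were heterozygous for rps14, which encodes a small ribosomal subunit protein, or wild type. They had been given 1 µg/mL phenylhydrazine (Phz, which lyses red cells) between 24 and 48 hours post fertilization or were left unstressed, and then spent 4 days in 20 µM imiquimod, a TLR7 agonist, or in DMSO. Each library came from embryos pooled before sorting, after genotyping by tail clip. The heterozygous groups held 4 Phz imiquimod, 5 Phz DMSO, 3 unstressed imiquimod and 4 unstressed DMSO libraries. The wild-type groups held 4 Phz imiquimod, 3 Phz DMSO, 4 unstressed imiquimod and 3 unstressed DMSO libraries. All carried the same transgene, and the labels name no heat shock. The labels number the replicates without saying what they are, so the p-values reflect spread among libraries that may be technical replicates.

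HSP90 and HSP70 are ATP-driven chaperones of the cytosol, nucleus and organelles. HSP70 binds short unfolded stretches of a protein, J-domain proteins (the DNAJ genes) bring it its clients and start ATP hydrolysis, and HSP110 proteins release ADP from it. HSP90 takes later folding steps of kinases, steroid receptors and other clients, and receives them from HSP70 through adaptor proteins, while the ring-shaped CCT chaperonin folds actin and tubulin. In blood progenitors, chaperones fold the products of rapid protein synthesis, and HSP70 is also known from human cells to shield the erythroid factor GATA1.

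Library totals ran from 5703056 to 15238153 counts (median 6894464), and the members took 2.5 to 3.87% of them. RPS14, the mutated gene, held 100 to 346 CPM (its share of the counts in a library, on a common scale) in heterozygous libraries and 347 to 672 CPM in wild-type libraries, so the groups did not overlap. The gene behind the sort, itga2b, was found in every library (0.269 to 34.2 CPM), and of 20 progenitor and thrombocyte markers 14 were found, summing to 2968 to 4452 CPM in heterozygous and 2681 to 4265 CPM in wild-type libraries. Markers of other cells were present too. Summed neutrophil markers (11 rows) ran from 6352 to 21686 CPM in heterozygous and from 8678 to 34025 CPM in wild-type libraries. In the exocrine pancreas list prss1 had a median of 5.26 CPM over all libraries. It ran from 0.447 to 1503 CPM in heterozygous and from 0 to 87.2 CPM in wild-type libraries. The gene cpa5 is also on the neutrophil list, so sums over the pancreas list may hold RNA of other cells. Summed exocrine pancreas markers (11 rows, none at 0 throughout) exceeded 2000 CPM in 4 heterozygous libraries. These were replicate 1 of Phz DMSO, replicate 3 of unstressed DMSO and replicates 2 and 3 of unstressed imiquimod. The next highest library had 1568 CPM. The 4 are described below as the pancreas-marker libraries. Leaving them out keeps only replicate 1 of heterozygous unstressed imiquimod, a group with equal weight in the averaged comparisons. Fits without them are therefore given as effect sizes, and they cannot decide whether a call holds. In such a fit the all-gene median log2 fold change for genotype moved from 0.02 to -0.08. Genotype values with and without the 4 libraries thus have different baselines.

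Of the 89 members, 59 had at least 1 count in all 30 libraries. Low counts kept 3 out of the tests, HSPA8 (ENSDARG00000037403), DNAJB5 and hspb6, which leaves 86 tested. A further limit is that 16 members share a symbol with another member, so identifiers are given for them. The spread between libraries of a group differed widely among the members. The SD of log2(CPM + 1) within groups was 0.193 for HSP90AB1 and 0.235 for HSPA8 (ENSDARG00000068992), which had 1680644 and 2658312 reads in all. It was 0.155 to 0.322 over the 8 CCT rows. For the heat-inducible cytosolic HSP70 genes it was much larger, 1.06 for hsp70.1, 1.85 for hsp70.3 and 1.56 for hsp70l. Those genes were read sporadically: hsp70.1 had 0 counts in 5 libraries, hsp70.3 in 8 and hsp70l in 6, with highest levels of 10.8, 32.6 and 22.9 CPM. If these genes, with HSPA2 and hspa1b, are alike in sequence, reads may have been split between them. Their sequences were not compared, so their separate values are uncertain.

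**Figure D1:**
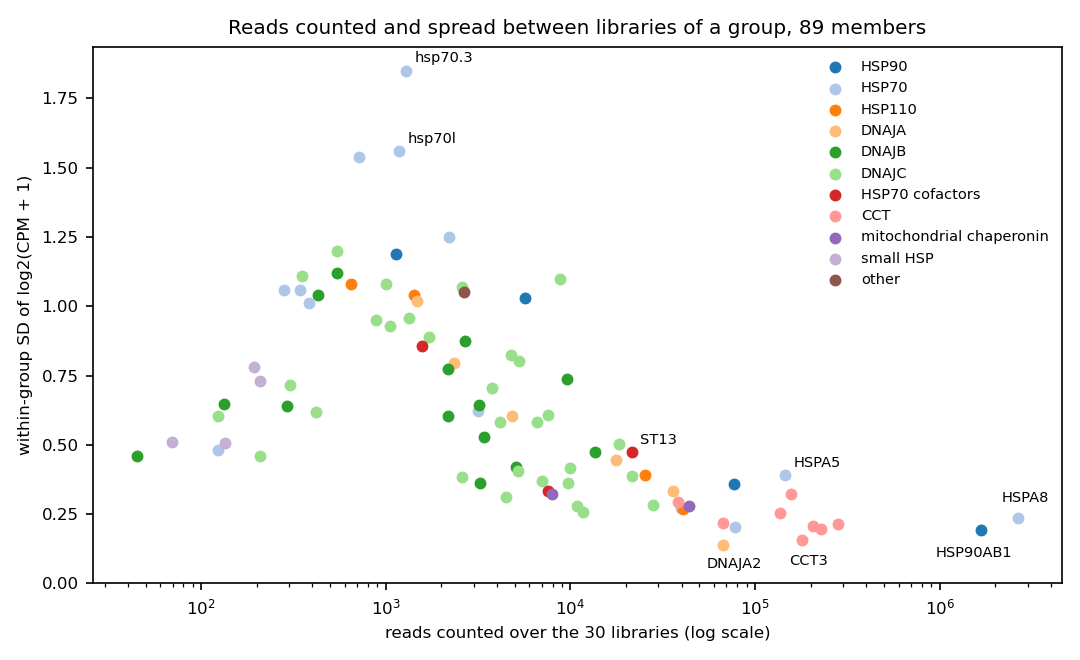
Total reads counted over the 30 libraries (log scale, not corrected for length) against the SD of log2(CPM + 1) within groups, 1 point per member and 1 colour per family. HSP90AB1 and HSPA8 sit at the right with SDs of 0.193 and 0.235, the CCT rows lie at 0.155 to 0.322, and hsp70.3 reaches 1.85 at few reads.

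Heterozygosity for rps14 was examined first, averaged over the 4 combinations of stress and treatment. HSP90AB1, the constitutive cytosolic HSP90, fell in heterozygous cells, and it was the one member of 86 that passed the test. The background was low, at 0.437% of 19930 genes called (0.361% lower and 0.0753% higher). At an unadjusted p under 0.05 there were 12 members of 86 (14% of them, against 8.98% of all genes tested). Signs were mixed, with 42 of 86 fold changes positive (48.8%, against 52.3% of all genes) and a median log2 fold change of -0.003 against 0.021 over all genes. As shares of the library, the 4 HSP90 genes summed to 7537 ± 1144 CPM in heterozygous and 8942 ± 1685 CPM in wild-type libraries (SD, n = 16 and 14). The 13 HSP70 genes summed to 12571 ± 1894 CPM in heterozygous and 14331 ± 1872 CPM in wild-type libraries, sums set mostly by HSP90AB1 and HSPA8.

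HSP90AB1 (ENSDARG00000029150) held 7187, 6399.8, 5459.6 and 6817 CPM in heterozygous Phz imiquimod libraries, against 8335, 7331, 7461 and 6073 CPM in wild-type ones. In Phz DMSO it held 6338, 6931, 6708, 9738 and 9156 CPM in heterozygous libraries, against 8313, 12705 and 11009 CPM in wild-type libraries. Here 3 of 5 heterozygous libraries lay below all wild-type ones, and the other two lay between them. In unstressed imiquimod the values were 8257, 7467 and 7854 CPM in heterozygous libraries and 9807, 9248, 7828 and 9508 CPM in wild-type libraries, and in unstressed DMSO 5668, 6852, 6416 and 6247 CPM in heterozygous and 7819.7, 7648 and 7813 CPM in wild-type libraries. In unstressed DMSO the groups did not overlap, and in both imiquimod conditions they did. Over all conditions 13 of 16 heterozygous libraries lay below the wild-type median, and HSP90AB1 averaged 7093 ± 1171 CPM in heterozygous (SD, n = 16) and 8636 ± 1699 CPM in wild-type libraries (SD, n = 14).

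The log2 fold change of HSP90AB1 was -0.39 ± 0.07 (SE; 0.766-fold, edgeR's quasi-likelihood test, adjusted p = 0.0022). This value uses TMM scaling and weighs the 4 conditions equally, so it need not equal the ratio of the CPM averages. Its adjusted p stayed between 0.00085 and 0.0098 as each of the 30 libraries was left out. Without the 4 pancreas-marker libraries the log2 fold change was -0.34, against an all-gene median of -0.08 (0.02 with all libraries). That fit keeps only replicate 1 of heterozygous unstressed imiquimod, so it cannot decide whether the call holds. In bulk libraries, fewer cells of a type and less RNA per cell cannot be told apart. Beside this, neutrophil markers had 0 of 11 fold changes positive (median -0.52, 0 called by edgeR); their part in the result was not tested. The same gene was the one member called in the test of any difference among the 8 groups (edgeR adjusted p = 0.0094, 0.135% of genes called; 9 members and 9.01% of all genes at an unadjusted p under 0.05). That call was lost without replicate 2 of wild-type Phz DMSO (adjusted p = 0.079) or its replicate 3 (adjusted p = 0.065). It was also lost without the 6 libraries numbered S1 to S6 (adjusted p = 0.061). All 30 libraries carry such a number, up to S33, and the labels do not mark these 6 as a batch.

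**Figure D2:**
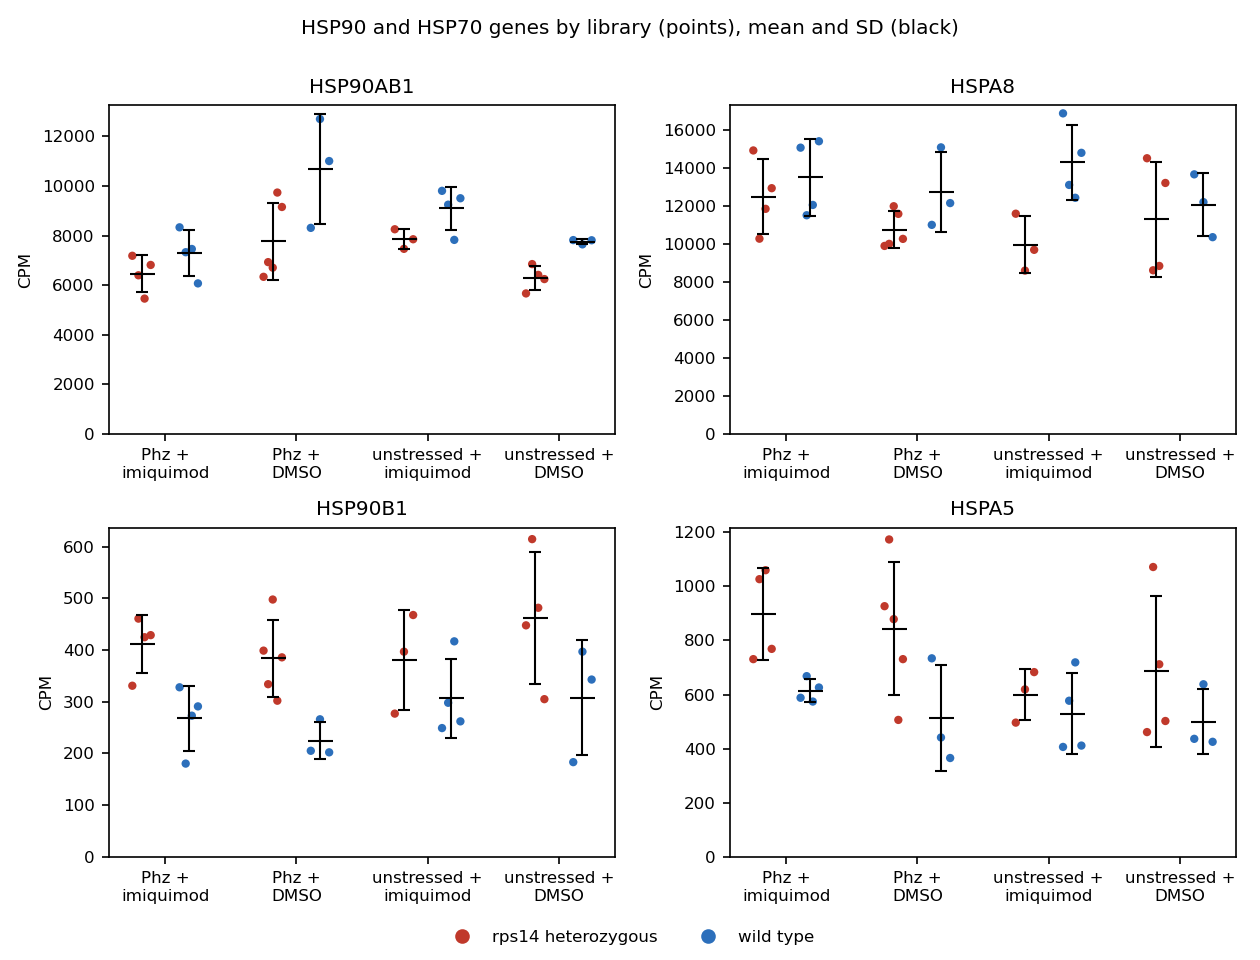
CPM of 4 genes by group (points are libraries, black bars the mean and SD, n = 3 to 5; heterozygous left of wild type in each condition). HSP90AB1 and HSPA8 averages were lower in heterozygous than wild-type cells in all 4 conditions, and those of HSP90B1 and HSPA5 higher.

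HSPA8, the constitutive cytosolic HSP70, had a fold change of the same sign as HSP90AB1 but did not pass. HSPA8 (ENSDARG00000068992) ran from 8596 CPM (median 10928) to 14919 CPM in heterozygous and from 10355 (median 12766) to 16871 CPM in wild-type libraries. The 2 ranges overlapped, and 8 heterozygous libraries lay below every wild-type one. The log2 fold change was -0.34 ± 0.08 (SE, edgeR adjusted p = 0.054). It passed with DESeq2 (adjusted p = 0.015) and with limma-voom (adjusted p = 0.023). In edgeR it passed with DESeq2's size factors (adjusted p = 0.049), without the libraries labelled S1 to S6 (0.017), with a term for them (0.0036) and in 7 of the 30 fits that leave out 1 library. Without the pancreas-marker libraries the log2 fold change was -0.23, against an all-gene median of -0.08 (0.02 with all libraries).

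HSP90B1 and HSPA5, which work in the endoplasmic reticulum, had positive fold changes and did not pass. HSP90B1 (the HSP90 of the endoplasmic reticulum, also called GRP94) ran from 277 (median 412) to 615 CPM in heterozygous and from 180.2 (median 269) to 417 CPM in wild-type libraries. All 16 heterozygous libraries lay above the wild-type median and 8 above the highest wild-type library. Its log2 fold change was 0.48 ± 0.12 (SE, edgeR adjusted p = 0.081). DESeq2 called it (adjusted p = 0.013), and limma-voom did not. In edgeR it passed with a replicate block (adjusted p = 0.046) and with a term for the libraries labelled S1 to S6 (0.048). It also passed without heterozygous unstressed DMSO replicate 4 (0.045), heterozygous unstressed imiquimod replicate 1 (0.048) or wild-type unstressed imiquimod replicate 3 (0.042). The other fits that leave out 1 library did not call it. Nor was it called with DESeq2's size factors in edgeR or without the libraries labelled S1 to S6. Without the pancreas-marker libraries the log2 fold change of HSP90B1 was 0.37, against an all-gene median of -0.08 (0.02 with all libraries).

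HSPA5 (BiP, the HSP70 of the endoplasmic reticulum) ran from 461 (median 731) to 1174 CPM in heterozygous and from 365 (median 575) to 734 CPM in wild-type libraries. In all, 7 heterozygous libraries exceeded the highest wild-type one. The log2 fold change of 0.38 ± 0.13 did not pass (SE, edgeR adjusted p = 0.28). Summed exocrine pancreas markers ran from 478 to 6609.8 CPM in heterozygous and from 531 to 1524 CPM in wild-type libraries. For genotype, 10 of these 11 rows had positive fold changes (median log2 fold change 4.66, 0 called by edgeR). Without the 4 libraries above 2000 CPM, HSPA5 stood at 0.32, against an all-gene median of -0.08 (0.02 with all libraries). The part of these markers in the result was not tested. DNAJB11, a J-protein of the same compartment, averaged 70.0 ± 23.4 CPM in heterozygous and 55.7 ± 17.5 CPM in wild-type libraries (SD, n = 16 and 14; log2 fold change 0.23, adjusted p = 0.77). Another of that compartment, dnajc3b, stood at 0.65 ± 0.28 (SE, adjusted p = 0.45).

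Of the rest of the HSP70 machinery, no member passed. HSPA14, a ribosome-associated HSP70 in humans, averaged 204 ± 33.9 CPM in heterozygous and 152 ± 35.4 CPM in wild-type libraries (SD, n = 16 and 14). There, 10 heterozygous libraries lay above the highest wild-type value, 190.4 CPM, and the log2 fold change was 0.33 ± 0.10 (SE, edgeR adjusted p = 0.2). HSPA9, the mitochondrial HSP70, averaged 379 ± 43.5 CPM in heterozygous and 325 ± 61.7 CPM in wild-type libraries, a log2 fold change of 0.12 (adjusted p = 0.76). HSPH1, an HSP110 exchange factor, averaged 4.68 ± 4.01 CPM in heterozygous and 9.13 ± 5.73 CPM in wild-type libraries, a log2 fold change of -1.10 ± 0.47 (SE, adjusted p = 0.45). The 2 rows named HSPA4, another HSP110, stood at 0.20 (ENSDARG00000018989) and 0.04 (ENSDARG00000004754), and neither passed.

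Among the J-proteins, 49 of the 50 genes were tested and 0 were called by edgeR. An unadjusted p under 0.05 was found for 5 of them (1 DNAJA and 4 DNAJC) and for 8.98% of all genes. DNAJC11, a protein of the mitochondrial cristae organizing complex, ran from 62.7 (median 113) to 182 CPM in heterozygous and from 49.4 (median 80.6) to 109.6 CPM in wild-type libraries, and 9 heterozygous libraries lay above all wild-type ones. Its log2 fold change was 0.44 ± 0.13 (SE, edgeR adjusted p = 0.18), and 0.62 without the pancreas-marker libraries. DESeq2 called it at the threshold (adjusted p, rounded, 0.05). DNAJA2 (ENSDARG00000104066), a cytosolic HSP70 partner, averaged 297 ± 28.4 CPM in heterozygous and 319.8 ± 35.4 CPM in wild-type libraries. Its log2 fold change was -0.22 ± 0.08 (SE, edgeR adjusted p = 0.26, DESeq2 adjusted p = 0.048). DNAJC7, an adaptor that binds both HSP70 and HSP90, stood at -0.30 ± 0.13 (adjusted p = 0.46).

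**Figure D3:**
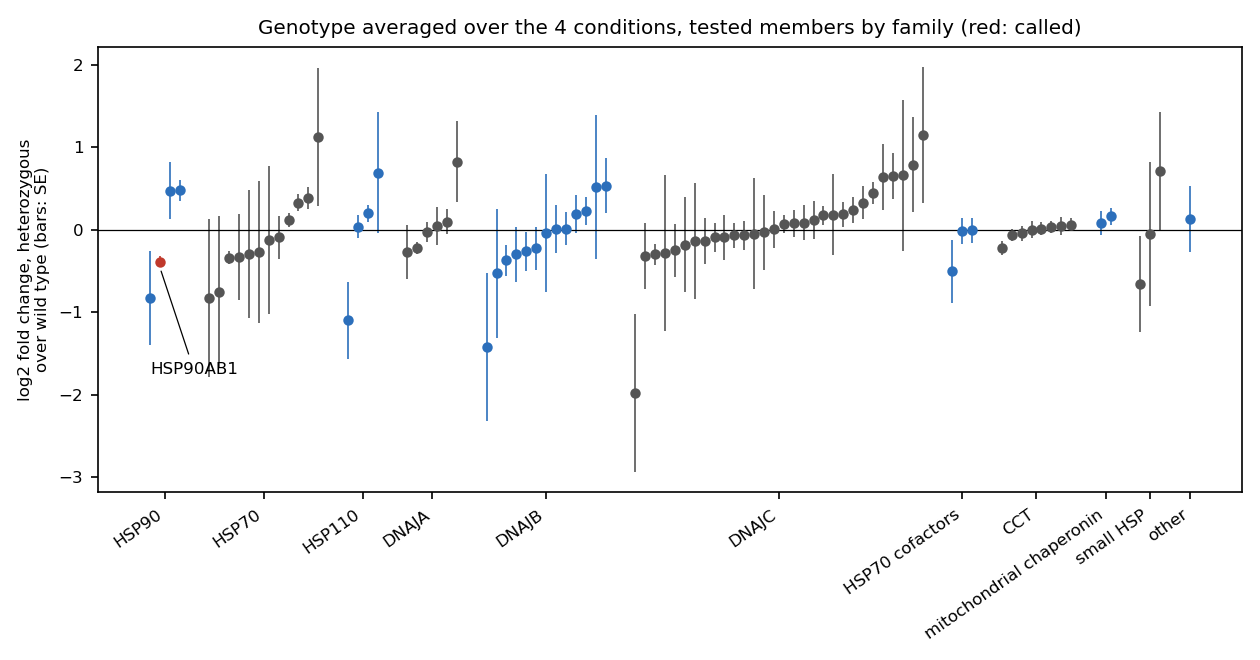
log2 fold change of heterozygous over wild-type cells, averaged over the 4 conditions, for the 86 tested members in family order, with SE bars. HSP90AB1 (red, -0.39) is the one called, the CCT rows lie between -0.22 and 0.06, and wide bars mark genes with few reads.

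The CCT rows varied little between libraries, with a median within-group SD of 0.215 against 0.583 over all members. CCT8 had the largest genotype value of the 8 CCT rows, with 203 (median 298) to 394 CPM in heterozygous and 232 (median 305) to 410.2 CPM in wild-type libraries, a log2 fold change of -0.22 ± 0.09 SE (adjusted p by edgeR = 0.37). The other seven lay between -0.06 and 0.06, among them CCT4 at 0.06 ± 0.08 and CCT3 at -0.06 ± 0.07 (SE). The 2 rows named CCT2 and cct2 (ENSDARG00000104674 and ENSDARG00000087206) are copies of 1 subunit. Summed over the 8 rows, the family held 6101 ± 676 CPM in heterozygous libraries and 5726 ± 635 CPM in wild-type libraries (SD, n = 16 and 14). CPM are shares of a library, and the fold changes, which also use TMM scaling, were centred near 0. The mitochondrial chaperonin pair HSPD1 and HSPE1 (chaperonins 60 and 10) stood at 0.17 ± 0.10 and 0.08 ± 0.14 (SE), and neither passed. Small heat shock proteins were barely read, HSPB1 at a median of 0.451 CPM in heterozygous and 0.767 CPM in wild-type libraries.

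Genotype was also tested within each stress state in DMSO, where no member passed; it was not tested within imiquimod alone. In unstressed DMSO 0.00502% of genes were called, and 5 of 86 members (5.81%, against 8.17% of all genes) had an unadjusted p under 0.05 with edgeR, among them HSPA14 (log2 fold change 0.72 ± 0.21, SE, adjusted p = 0.44) and HSP90AB1 (-0.44 ± 0.14, adjusted p = 0.47). After Phz in DMSO, again with 0.00502% called, 5 of 86 members (5.81%, against 7.83%) had an unadjusted p under 0.05. HSP90AB1 stood at -0.54 ± 0.13 (SE, adjusted p = 0.6), HSP90B1 at 0.71 ± 0.25 and HSPA5 at 0.64 ± 0.27. DESeq2 and limma-voom called 0 members in both. The tests of whether the genotype difference changed with Phz or with imiquimod called 0 genes of 19930 (0%), with 5 members at an unadjusted p under 0.05 for Phz (5.56% of all genes) and 2 for imiquimod (5.91% of all genes) by edgeR, and 0 members called by DESeq2 and limma-voom.

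Phz was compared with no stress, averaged over genotype and treatment. No member passed by edgeR, where 0.0201% of genes did, and 10 of 86 members had an unadjusted p under 0.05 (11.6%, against 12.4% of all genes). DESeq2 and limma-voom called 0 members as well. Of the 86, 54 had positive fold changes (62.8%, against 44.2% of all genes) with a median of 0.08 against -0.06. DNAJC1, a J-protein of the endoplasmic reticulum membrane, ran from 104 (median 139) to 189 CPM after Phz and from 67.2 (median 109.7) to 144 CPM without it. The ranges overlapped, with a log2 fold change of 0.39 ± 0.11 SE (adjusted p by edgeR = 0.16).

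Of the 12 tested HSP70 genes 9 had positive values (median 0.14) and 2 had an unadjusted p under 0.05, HSPA5 and HSPA9, and of the 4 HSP110 genes 2 were positive, with 1 under 0.05. That one, HSPA4 (ENSDARG00000004754), averaged 128 ± 20.8 CPM after Phz and 102 ± 34.7 CPM without (SD, n = 16 and 14; log2 fold change 0.38 ± 0.14, SE, edgeR adjusted p = 0.23). HSPA5 averaged 738 ± 228 CPM after Phz and 583 ± 181 CPM without (0.32 ± 0.13, adjusted p = 0.31), and HSPA9 averaged 372 ± 51.9 CPM after Phz and 334 ± 60.8 CPM without (0.19 ± 0.09, adjusted p = 0.37). The other HSPA4 row (ENSDARG00000018989) stood at -0.05, HSPA8 (ENSDARG00000068992) at 0.09, HSPA14 at 0.04, HSPA4L at -1.07 ± 0.73 and hspa1b at -0.99 ± 1.02 (SE). HSP90AA1, the stress-inducible HSP90 in mammals, averaged 30.1 ± 15.9 CPM after Phz and 21 ± 20 CPM without (0.73 ± 0.35, adjusted p = 0.39). DNAJC21, a ribosome biogenesis factor in humans, stood at 0.73 ± 0.28 (SE, adjusted p = 0.27), and DNAJC6, which releases clathrin in neurons, at -2.40 ± 0.86 with at most 7.19 CPM in any library. The heat-inducible hsp70.3 stood at 1.23 ± 0.98 and hsp70l at 0.53 ± 0.78 (SE), neither past the threshold. Summed erythroid markers (12 rows) ran from 711 to 2323 CPM after Phz and from 492 to 1648 CPM without, with 12 of 12 fold changes positive (median 0.46, 0 called by edgeR). Their part in these values was not tested.

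Imiquimod was compared with DMSO, averaged over genotype and stress. No member passed by edgeR, where 0.00502% of genes did (1 gene), and 8 of 86 had an unadjusted p under 0.05 (9.3%, against 8.98% of all genes). DESeq2 and limma-voom called 0 members. Of the 86, 34 fold changes were positive (39.5%, against 57.3% of all genes), with a median of -0.07 against 0.06. Summed macrophage markers (16 rows, none at 0 throughout) ran from 571 (median 844) to 1745 CPM with imiquimod and from 432 (median 680.5) to 1205 CPM with DMSO, with 12 of 16 fold changes positive (median 0.34, 0 called by edgeR), and their part in these values was not tested. CCT8 ran from 203 (median 284) to 379.6 CPM with imiquimod and from 265 (median 305) to 410.2 CPM with DMSO, a log2 fold change of -0.28 ± 0.09 SE (adjusted p by edgeR = 0.28). The other CCT rows lay between -0.11 (CCT3) and 0.05 (CCT5). HSPE1 averaged 31.3 ± 8.63 CPM with imiquimod and 41.4 ± 7.74 CPM with DMSO (SD, n = 15 each; -0.41 ± 0.14, SE, adjusted p = 0.34), while its partner HSPD1 averaged 200 ± 19 CPM with imiquimod and 205 ± 53.8 CPM with DMSO.

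**Figure D4:**
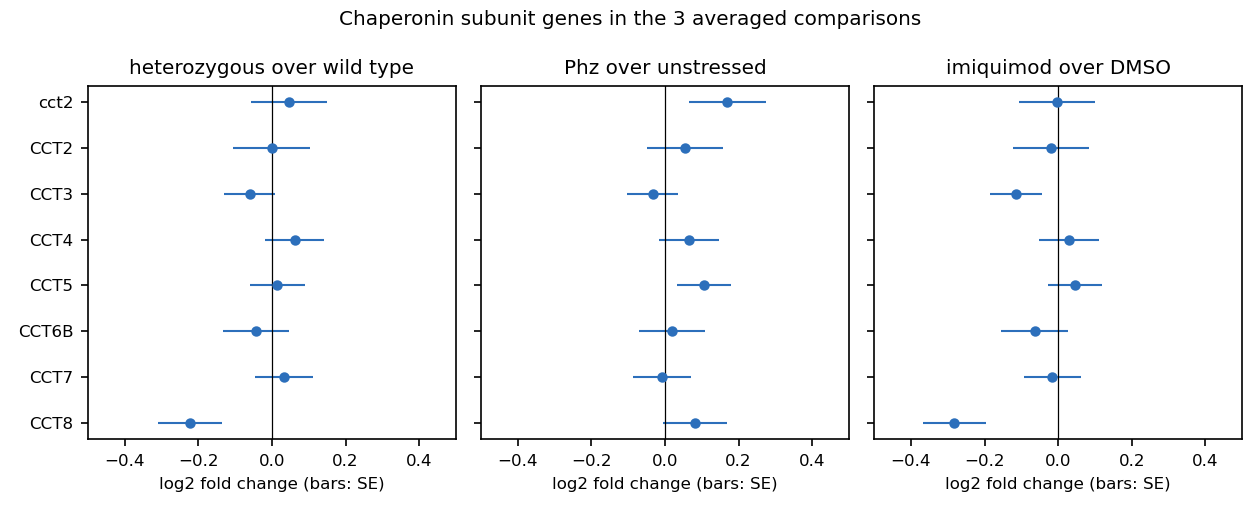
log2 fold change with SE of the 8 CCT rows for heterozygous over wild type, Phz over unstressed and imiquimod over DMSO, each averaged over the other 2 factors. CCT8 lies at -0.22 for genotype and -0.28 for imiquimod, and no row passed the test in any of the 3.

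The interaction of Phz with imiquimod asks whether the imiquimod difference was the same after stress as without it. ST13 (ENSDARG00000021973), an HSP70-interacting protein that links HSP70 to HSP90, was the one member called (0.0351% of genes; 7 of 86 members at an unadjusted p under 0.05, 8.14%, against 8.85% of all genes). After Phz, heterozygous libraries held 138, 140.3, 138 and 99.5 CPM of ST13 with imiquimod, against 78.7, 43.9, 57.9, 123 and 71.4 CPM with DMSO. Wild-type libraries after Phz held 91.9, 130, 106 and 115 CPM with imiquimod and 50.9, 86.0 and 68.1 CPM with DMSO. In both genotypes the imiquimod libraries lay higher, except that 1 heterozygous DMSO library (123 CPM) lay within the imiquimod range.

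Without stress the order turned round. Unstressed heterozygous libraries held 91.6, 94.1 and 35.4 CPM of ST13 with imiquimod and 131, 108, 88.3 and 165 CPM with DMSO. Unstressed wild-type libraries held 94.7, 82.9, 32.5 and 60.5 CPM with imiquimod and 119, 129 and 162 CPM with DMSO. Wild-type ranges did not overlap, and heterozygous ones did through the 88.3 CPM library. The log2 difference of the imiquimod effects (after Phz minus without) was 1.64 ± 0.32 (SE, edgeR adjusted p = 0.048), made up of 0.74 ± 0.22 after Phz (adjusted p = 0.35) and -0.91 ± 0.23 without (adjusted p = 0.21), neither of which passed alone. Imiquimod after Phz called 0.00502% of genes and 0 members (7 at an unadjusted p under 0.05, against 9.48% of all genes; HSP90AB1 with DESeq2 and limma-voom). Imiquimod without Phz called 0.0151% of genes and 0 members (8 at an unadjusted p under 0.05, against 7.17% of all genes; ST13 with DESeq2, 0 with limma-voom).

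The call on ST13 was close to the threshold. It held in 5 of the 30 fits that each left out 1 library (edgeR adjusted p = 0.022 to 0.12 over the 30): without heterozygous unstressed DMSO replicate 3, heterozygous unstressed imiquimod replicate 1 or 2, heterozygous Phz DMSO replicate 4, or wild-type unstressed imiquimod replicate 2. It held in DESeq2 (adjusted p = 0.0015) and limma-voom (adjusted p = 0.026). In edgeR it held with the replicate block (adjusted p = 0.04) and with a term for the libraries labelled S1 to S6 (0.037). It was lost with DESeq2's size factors in edgeR (adjusted p = 0.05) and without the low-count filter (0.053). Without the libraries labelled S1 to S6 it was also lost (log2 difference 1.95, adjusted p = 0.1). Without the pancreas-marker libraries the log2 difference was 1.57, against an all-gene median of 0.17 (0.04 with all libraries). HSP90AB1 had an interaction value of -0.66 ± 0.14 (SE, edgeR adjusted p = 0.068), with -0.41 ± 0.09 for imiquimod after Phz and 0.25 ± 0.10 without; DESeq2 (adjusted p = 0.0051) and limma-voom (adjusted p = 0.032) called it. Among members with an unadjusted p under 0.05, dnajb1a, a zebrafish copy of the heat-inducible HSP40 gene DNAJB1, stood at -1.80 ± 0.66 (adjusted p = 0.42) and HSPBP1, an HSP70 exchange factor, at 0.72 ± 0.30 (SE, adjusted p = 0.49). In Phz-stressed heterozygous cells alone, imiquimod gave ST13 a log2 fold change of 0.77 ± 0.29 SE (adjusted p by edgeR = 1) and HSP90AB1 one of -0.27 ± 0.12 (adjusted p = 1). In that comparison 0% of genes were called, and 3 of 86 members had an unadjusted p under 0.05, against 4.31% of all genes. DESeq2 and limma-voom called 0 members. The Phz effect in DMSO called 0% of genes in each genotype: HSP90AB1 stood at 0.35 ± 0.12 in heterozygotes and 0.44 ± 0.15 in wild type, and ST13 at -0.67 ± 0.29 in heterozygotes and -1.02 ± 0.35 in wild type (SE). No member passed with edgeR, DESeq2 or limma-voom, and 4 members in heterozygotes (6.99% of all genes) and 8 in wild type (10.7% of all genes) had an unadjusted p under 0.05. The comparisons share libraries, so these values are not independent.

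**Figure D5:**
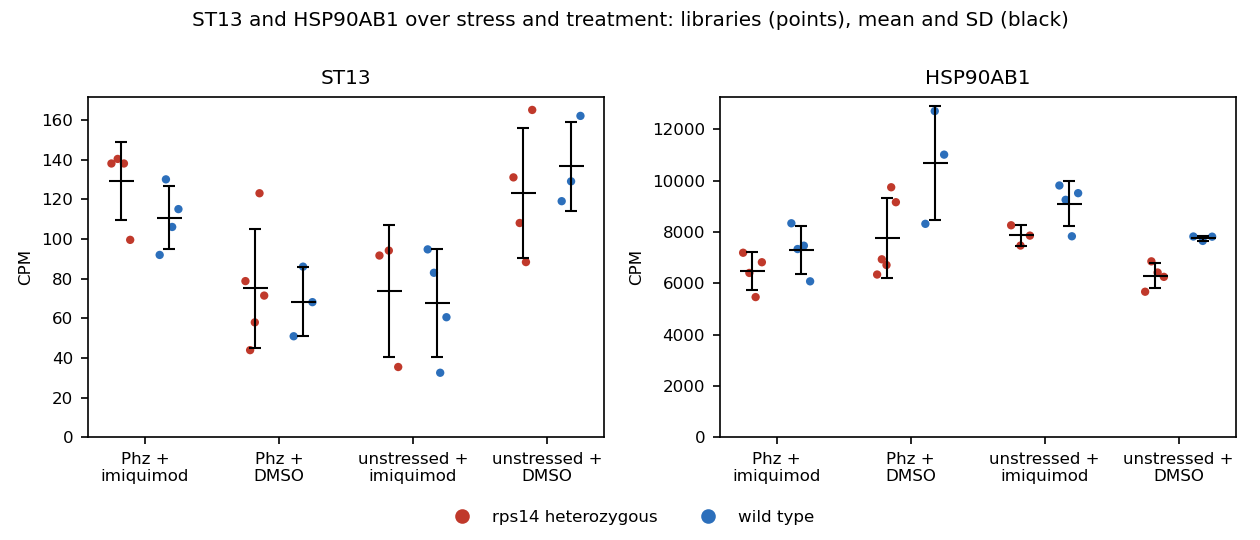
CPM of ST13 and HSP90AB1 in the 8 groups (points are libraries, black bars the mean and SD, n = 3 to 5; heterozygous left of wild type). ST13 means with imiquimod and with DMSO were 129 and 75.0 CPM after Phz and 73.7 and 123 CPM without it in heterozygotes, and HSP90AB1 means ran the opposite way.

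Other genes of the chaperone network, outside the name rule, were set out in 6 lists. Of 22 tested HSP90 co-chaperones 0 were called for genotype by edgeR and 17 had positive values (median 0.125, against 0.02 over all genes). An unadjusted p under 0.05 was found for 4 of them and for 8.98% of all genes. FKBP4 stood at 0.43 ± 0.14, STIP1 (HOP, which passes clients between HSP70 and HSP90) at 0.30 ± 0.10 and CDC37, the kinase adaptor, at 0.33 ± 0.15 (SE). Their signs were opposite to that of HSP90AB1. In unstressed DMSO the co-chaperone list had 16 positive and 6 negative genotype values (median 0.324, against 0.02 over all genes). After Phz in DMSO it had 9 positive and 13 negative ones (median -0.0382, against 0.06 over all genes). Over both treatments, the change of the genotype difference with Phz had 10 positive and 12 negative values (median -0.00903, against 0.04 over all genes). VCP, the ATPase that extracts ubiquitinated proteins, averaged 454 ± 106 CPM in heterozygous and 340 ± 67.1 CPM in wild-type libraries (log2 fold change 0.30 ± 0.09, SE, edgeR adjusted p = 0.17). Of 28 tested endoplasmic reticulum folding genes 0 were called for genotype, and 16 had positive and 12 negative values (median 0.03, against 0.02 over all genes). An unadjusted p under 0.05 was found for 5 of them (8.98% of all genes), among them PDIA4 at 0.42 ± 0.16 and CALR at 0.35 ± 0.17 (SE). In unstressed DMSO the same list had 10 positive and 18 negative values (median -0.165, against 0.02 over all genes). After Phz in DMSO it had 22 positive and 6 negative values (median 0.244, against 0.06 over all genes). Over both treatments, the change with Phz had 19 positive and 9 negative values in this list (median 0.184, against 0.04 over all genes). Of 18 prefoldin, TCP1 and tubulin-folding genes 0 were called, as was 0 of 6 heat shock factor genes, 0 of 21 HSP70 exchange and quality control genes and 0 of 16 mitochondrial import and protease genes. After Phz, the mitochondrial list was positive in 16 of 16 genes (median 0.24, against -0.06 over all genes). Of these 1 passed, tomm20a, a receptor of the mitochondrial import pore, at 103 ± 18.1 CPM after Phz and 69.9 ± 26.4 CPM without (log2 fold change 0.67 ± 0.12, SE, edgeR adjusted p = 0.03). With the replicate block 0 genes were called for Phz. The other five lists had 0 genes called for Phz, and all 6 had 0 for imiquimod by edgeR. For imiquimod, 3 of the 18 prefoldin, TCP1 and tubulin-folding genes had positive values (median -0.11, against 0.06 over all genes). An unadjusted p under 0.05 was found for 3 of the 18 (8.98% of all genes), among them PFDN1, a prefoldin subunit, at -0.38 ± 0.12 (SE, edgeR adjusted p = 0.27).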

How the data were processed

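The authors deposited 1 table of raw read counts per gene for 30 libraries, made by the Smart-seq2 method. The submitters' processing notes name the build GRCz11 and the tools HISAT2 2.1.0 and SAMtools 1.9, Trimmomatic 0.39 and FastQC 0.11.9, featureCounts from Subread 2.0.0, and DESeq2; the annotation release, strand setting and gene filter are not given in the sources used here. No gene in the table has fewer than 25 counts in all. All 30 columns were mapped to samples by title. Without stated strand use, reads of overlapping antisense genes cannot be told apart.

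Members were found by symbol; members and gene lists were chosen with earlier results of these data known. Counts went into edgeR 4.0.16 (R 4.3.3): filterByExpr by group, TMM, robust quasi-likelihood fit with 1 coefficient per group, over 19930 genes, with Benjamini-Hochberg adjustment over all of them per comparison and calls at an adjusted p under 0.05. In all, 14 comparisons were fitted, 12 planned and 2 (imiquimod within each stress state) added after the values were seen. SEs are the log2 fold change over the root of the F statistic. CPM are counts over the library total, without TMM. Named members are a fixed list of main chaperones, every called member and those of smallest p (3 per family in the averaged comparisons, 3 overall in the others), with up to 4 genes per pathway list. Outside that rule, hsp70.1, hsp70.3, DNAJB11, for Phz hspa1b and HSPA14, and for Phz by imiquimod HSPBP1 were chosen after their values were seen.

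Alternatives were DESeq2 1.42.0, its size factors in edgeR, limma-voom (limma 3.58.1), no low-count filter and a replicate block. Others left out or modelled the 6 libraries numbered S1 to S6, or left out each library in turn. Every library has such a number, up to S33, and the labels do not say what the numbers mean. Beyond S6 the numbers follow the conditions: S7 to S18 were unstressed, S19 to S24 Phz imiquimod and S26 to S33 Phz DMSO. Among those libraries, number order and condition cannot be told apart. A fit without the 4 libraries highest in exocrine pancreas markers was added after the data were seen. The statistics were tested on simulated data. No 2 libraries of a group agreed within sampling noise (lowest chi-square per degree of freedom 18.24).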

Additional observations from a re-analysis of the deposited data

Results flagged for a closer look

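Over the 14 members checked for a library far from the rest of its group, 70 group tests gave 5 such libraries, and chance gives about 1 in 20. DNAJC1 stood at 67.2 CPM in replicate 4 of unstressed heterozygous DMSO, against 133 to 144 CPM in the others of that group. CCT8 stood at 379.9 CPM in replicate 4 of heterozygous Phz DMSO, against 292 to 302 CPM in the others. ST13 stood at 99.5 CPM in replicate 4 of heterozygous Phz imiquimod, against 138 to 140.3 CPM. HSPB1 stood at 3.33 CPM in replicate 2 of unstressed heterozygous DMSO, against 0.367 to 0.691 CPM, and DNAJC6 at 0.818 CPM in replicate 2 of heterozygous Phz DMSO, where the others had 0 counts. The imiquimod difference of ST13 differed between the stress states by 1.64 on the log2 scale (edgeR adjusted p = 0.048). That call held in only 5 of the 30 fits that each left out 1 library.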

How the results depend on the processing

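Of the alternatives other than leaving out 1 library, 92 of 112 counts of called members stayed within 1.5 times the reported one, and no called value changed sign. Most of the 14 comparisons had 0 members called in the reported fit, so the 92 are mostly counts that stayed at 0. For genotype and for Phz by imiquimod, most counts changed. Counts by comparison are not given for the fit without the pancreas-marker libraries, which keeps only replicate 1 of heterozygous unstressed imiquimod. For genotype (1 member called) there were 2 with DESeq2 size factors, 5 with DESeq2, 2 with voom, 2 without the S1 to S6 libraries, 3 with an S1 to S6 term and 1 to 3 as each library was left out. For Phz by imiquimod (1 called) there were 0 with size factors, 2 with DESeq2, 2 with voom, 0 without the low-count filter, 0 without S1 to S6, 2 with the S1 to S6 term and 0 to 1 with 1 library left out. For imiquimod after Phz (0 called) DESeq2 and voom each called 1, and without Phz (0 called) DESeq2 called 1. For any group (1 called) there were 2 with DESeq2, 0 without S1 to S6 and 0 to 1 with 1 library left out. Over all genes, edgeR's 87 calls for genotype (15 higher) became 259 with DESeq2 (100 higher). Leaving out the pancreas-marker libraries moved the all-gene median from 0.02 to -0.08. The 4 calls for Phz became 167 with DESeq2, 17 with voom, 13 with the S1 to S6 term, 2 without S1 to S6 and 0 with the replicate block. The 1 for imiquimod became 54 with DESeq2, 5 with voom and 1 or 2 elsewhere. The 7 for Phz by imiquimod became 102 with DESeq2, 13 with the S1 to S6 term, 11 with the block, 4 without the filter, 3 with size factors and 2 without S1 to S6. DESeq2 also called 23 genes for each interaction with genotype, where edgeR called 0. The cause was not tested. With the replicate block 3 members were called for genotype (HSP90AB1, HSPA8 at an adjusted p of 0.0073 and HSP90B1 at 0.046) and 1 for Phz by imiquimod. Same-numbered libraries had a median correlation of deviations of 0.07 (-0.22 to 0.24), against -0.03 (-0.32 to 0.28) for differently numbered ones. Of 30 libraries, 5 correlated best with their own number, so whether the numbers pair the samples was not settled. For genes at few reads, such as hsp70.1 with 341 in all, only large differences could be detected.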
